A study of Mus musculus with 11 samples.

Results

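The Gimap gene cluster was described as a window of 140 kb on mouse chromosome 6, from 48.59 to 48.73 Mb in build mm9. The window was chosen from the Foxp3 peaks themselves, as the place with the most of them in a single run. The number and spacing of Foxp3 peaks in it are therefore a description and not a result. The window held 13 of the 2886 deposited Foxp3 peaks. At a false discovery rate (FDR, the authors' q-value) of at most 0.01 it also held 58 of 157731 Elf1 positions, 70 of 61761 Ets1 positions and 20 of 121632 Cbfb positions from regulatory T cells, and 45 of 53580 Elf1 and 70 of 42040 Ets1 positions from Foxp3-negative cells.

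The maps came from chromatin immunoprecipitation and sequencing (ChIP-seq) of CD4 T cells from lymph nodes and spleen of mice about 8 weeks old, sorted on green fluorescent protein that reports Foxp3. Foxp3-positive cells, called Treg below, were mapped with 3 Foxp3 libraries, 2 of them technical replicates, and with a single library for each of the other 3 factors. The Foxp3-negative cells of the same sort, called CD4, were the comparison, with a single library for Elf1 and another for Ets1. Strain, sex and the number of animals per library were not given in the labels, and position lists hold no expression with which to check the sort. Each list other than Foxp3 rests on 1 library of unknown depth, so no difference below has a replicate check and no p-value is given. Intervals are 95% and cover counting error only.

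Gimap genes encode GTPases of immunity-associated proteins, small GTP-binding proteins found mainly in lymphocytes, several of them anchored to intracellular membranes. In mice, Gimap5 is needed for the survival and quiescence of peripheral T cells, and Gimap1 for keeping mature T and B cells. Gimap3 is a close relative of Gimap5, Gimap4 has been tied to T cell death, and Gimap6 to autophagy. Foxp3 is the transcription factor that defines Treg cells. Elf1 and Ets1 belong to the ETS family and recognise DNA around a GGAA core, and Cbfb is the partner of the Runx proteins, which make the contact with DNA.

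In the RefSeq gene table of build GRCm38.p6, the 8 Gimap genes lie side by side in the order Gimap8, Gimap9, Gimap4, Gimap6, Gimap7, Gimap1, Gimap5 and Gimap3, with only a pseudogene and a long non-coding RNA gene among them. An annotation of the files' own build was not used here. The limits of the genes within the mm9 window were therefore not checked, and no position below is assigned to a gene.

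All 8 genes were matched to 9 RefSeq promoter sequences (GRCm38.p6, 250 bases before to 50 after each start site; Gimap8 has a pair of overlapping entries). The core GGAA, read on both strands, was in all 9, as in 96.0% of the 32851 promoters in the table, with 1 to 8 copies (median 5, against 3 over all promoters). The longer ETS form CGGAAG, or its variant AGGAAGT, was in 6 of the 9, belonging to Gimap1, Gimap5, Gimap6, Gimap8 and Gimap9, against 24.7% of all promoters, and both forms contain the core. The overlapping Gimap8 entries hold the same copy of CGGAAG, and by gene a longer form was found for 5 of 8. The Runx letters TGTGGT were in the promoters of Gimap1, Gimap4 and Gimap7 (16.8% of all promoters) and the forkhead letters TGTTTAC in that of Gimap3 (3.65%). The forkhead letters TGTTTGC were in none of the 9, against 5.07% of all promoters, and neither were the 8-letter forms CCGGAAGT (3.89%) and TGTGGTTT (1.78%). A match describes letters and not a bound site. The promoters of Gimap6 and Gimap1, which have 2 of the longer ETS forms each, and of Gimap5, which has the most cores, are shown on the strand of the gene, with these longer ETS forms, on either strand, in capitals.
Gimap6, chr6:48708195-48708494, minus strand, GRCm38.p6: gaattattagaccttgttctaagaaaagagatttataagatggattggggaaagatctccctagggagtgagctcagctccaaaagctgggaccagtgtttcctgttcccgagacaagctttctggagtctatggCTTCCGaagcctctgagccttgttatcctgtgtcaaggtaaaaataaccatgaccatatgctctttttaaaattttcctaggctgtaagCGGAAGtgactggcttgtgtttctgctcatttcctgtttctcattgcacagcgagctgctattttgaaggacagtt
Gimap1, chr6:48738797-48739096, plus strand, GRCm38.p6: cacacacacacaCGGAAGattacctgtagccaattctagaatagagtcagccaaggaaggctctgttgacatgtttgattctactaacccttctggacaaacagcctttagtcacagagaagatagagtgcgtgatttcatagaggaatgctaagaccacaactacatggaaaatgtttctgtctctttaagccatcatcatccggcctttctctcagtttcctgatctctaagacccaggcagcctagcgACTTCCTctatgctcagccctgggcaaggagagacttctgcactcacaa
Gimap5, chr6:48745947-48746246, plus strand, GRCm38.p6: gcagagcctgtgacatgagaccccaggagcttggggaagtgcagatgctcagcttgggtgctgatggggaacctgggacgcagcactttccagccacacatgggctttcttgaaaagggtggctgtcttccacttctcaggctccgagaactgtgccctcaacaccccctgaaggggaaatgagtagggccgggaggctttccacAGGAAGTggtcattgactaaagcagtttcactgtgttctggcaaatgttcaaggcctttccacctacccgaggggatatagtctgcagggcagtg
These coordinates belong to GRCm38.p6 and cannot be set against the mm9 coordinates that follow.

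The 13 Foxp3 peaks, each 200 bp wide and numbered 1 to 13 from left to right, ran from 48630547 to 48721082. Peaks 10 and 11 overlapped by 72 bp, so the peaks marked 12 separate places. The median gap between neighbours was 5898 bp, against 123644 bp between neighbouring Foxp3 peaks genome-wide. Since the window was chosen for a run of close peaks, this contrast follows from the choice. Peaks 5 to 12 formed the run of 8, with neighbours at most 10 kb apart, on which the window was chosen. Peak 4, at 48658116, lay 10246 bp before the first of them, just outside that limit, and peak 13 lay 24680 bp after the last. Beyond the window the next Foxp3 peaks were 125677 bp to the left and 1606780 bp to the right.

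Elf1 and Ets1 positions were dense in the window in both cell types. The window held 58 Treg Elf1 positions (95% Poisson interval 44.0 to 75.0) and 45 CD4 Elf1 positions (32.8 to 60.2). The genome was cut into 18858 other tiles of 140 kb, with a mean of 8.35 Treg Elf1 and 2.83 CD4 Elf1 positions. As many positions as in the window were found in 0.0265% of these tiles for Treg Elf1 and in 0% for CD4 Elf1, where the densest other tile held 37.

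Ets1 gave 70 positions in Treg (54.6 to 88.4) and 70 in CD4, against tile means of 3.26 and 2.22. At least 70 positions were found in 0.0212% of tiles for Treg Ets1 and in 0.0159% for CD4 Ets1. Cbfb stood out less, with 20 positions (12.2 to 30.9) against a tile mean of 6.44, a number reached by 0.164% of tiles. The tiles lie on a fixed grid, whereas the window was placed on its peaks, and the factors share many sites with Foxp3, so these ranks were not independent of how the window was chosen.

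At equal list length Ets1 was the denser of the pair. The lists were trimmed to their 10000 best-scoring positions, of which the window held 34 for Treg Ets1 and 35 for CD4 Ets1, but 13 for Treg Elf1, 9 for CD4 Elf1 and 2 for Treg Cbfb. At least as many were found in 0.0106% of tiles for Treg Ets1 and 0% for CD4 Ets1, in 0.0371% for Treg Elf1 and 0.159% for CD4 Elf1, and in 10.8% for Treg Cbfb, both of whose positions lay at a Foxp3 peak (2.93% of the trimmed list).

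**Figure D1:**
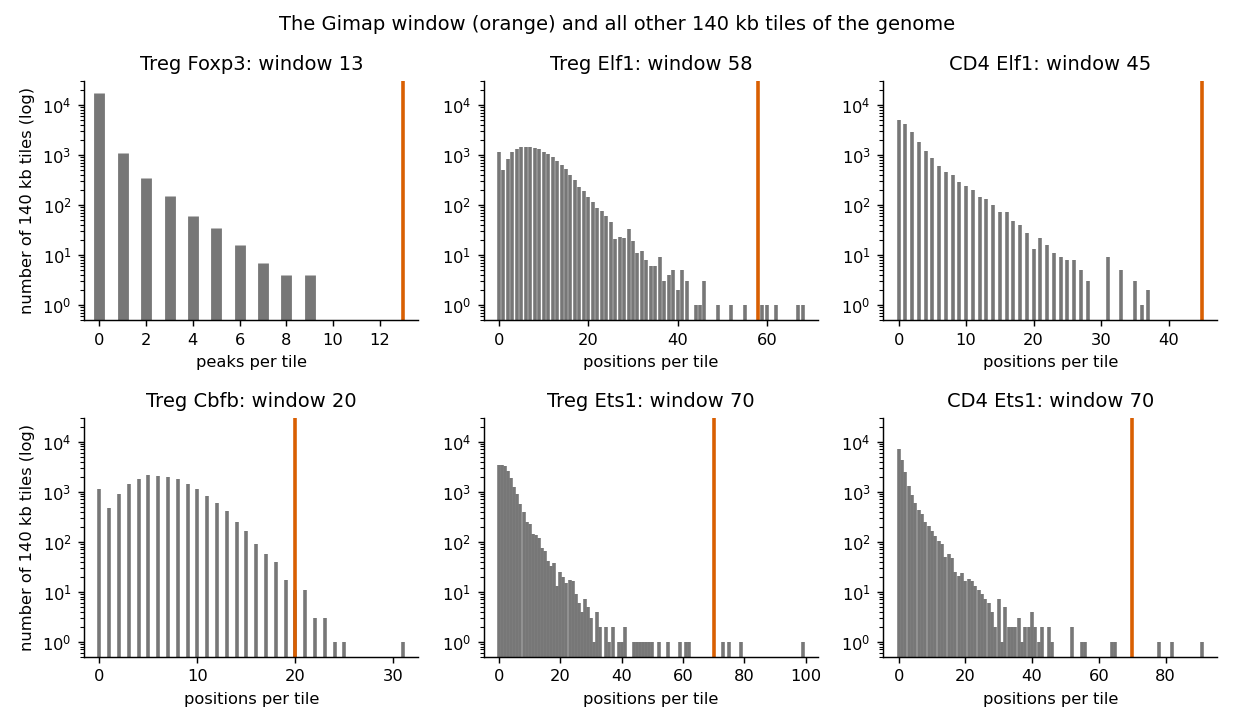
Number of Foxp3 peaks or of positions (FDR at most 0.01) per 140 kb tile on the horizontal axis, against the number of tiles on a log axis, for the Foxp3 list and the 5 libraries; the orange line marks the Gimap window. The window was placed on its Foxp3 peaks, so its place beyond every other tile for Treg Foxp3 (13) follows from that choice. For CD4 Elf1 (45) the window also lies beyond every other tile, and for the other 4 lists near the far end.

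Ets1 positions had higher fold enrichment in the window than over the whole lists, whereas Elf1 medians were close to theirs. The median fold enrichment in the window was 5.83 for Treg Elf1 and 4.97 for CD4 Elf1, against 5.71 and 4.97 over the whole lists. For Ets1 it was 4.76 in Treg and 7.58 in CD4, against 3.71 and 4.61 over the whole lists. Of the 70 Treg Ets1 positions 18 were at least 10-fold (14.4% over the whole list), and of the 70 CD4 Ets1 positions 26 were (20.8%). For Elf1 the numbers were 15 of 58 in Treg (24.7%) and 12 of 45 in CD4 (25.8%). The median for Treg Cbfb was 2.90, below the 4.36 of its whole list.

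Positions were unevenly spread along the window. The first 40 kb, which have no Foxp3 peak, held 10 Treg Elf1 and 6 CD4 Elf1 positions, 10 Treg Ets1 and 9 CD4 Ets1 positions, and 6 Treg Cbfb positions. Between 48698087 and 48711826, a stretch of 13739 bp between peaks 12 and 13, no library had a position at an FDR of at most 0.01. Weaker deposited positions did lie there, so the stretch was not blank in the deposited lists. With all deposited positions, the longest empty stretch of the window was 4302 bp.

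**Figure D2:**
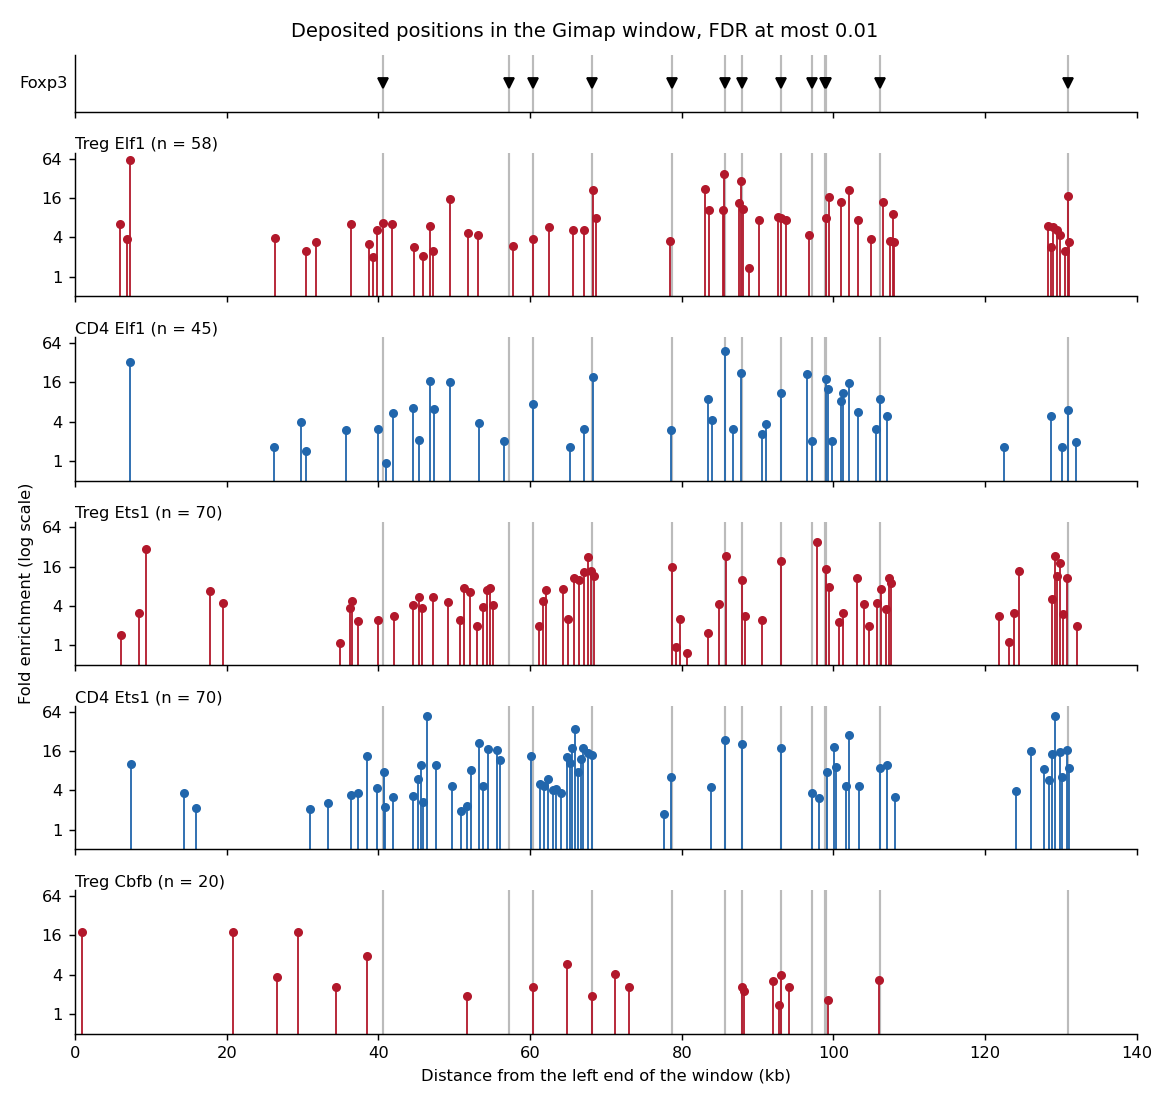
Fold enrichment (log axis) of every position at an FDR of at most 0.01 against its distance in kb from the left end of the Gimap window, by library, with the 13 Foxp3 peaks as triangles and grey lines. Treg libraries are red and CD4 libraries blue; CD4 Ets1 positions crowd up to the peak at 68.1 kb, and a stretch of 13739 bp between the last pair of peaks holds no position.

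Most Foxp3 peaks of the window carried ETS factors in both cell types. A position within 200 bp of the peak was counted as present. Treg Elf1 was present at 10 of the 13 peaks (76.9%, exact interval 46.2 to 95; 85.2% of all Foxp3 peaks), and CD4 Elf1 at 12 (92.3%, 64 to 99.8; 88.9% of all). Treg Ets1 was present at 9 (69.2%, 38.6 to 90.9; 83.5% of all) and CD4 Ets1 at 12 (92.3%; 89.0% of all). Treg Cbfb was present at 6 (46.2%, 19.2 to 74.9; 28.1% of all). Every one of these intervals contained the genome-wide share. The 4 Elf1 and Ets1 libraries were all present at 8 peaks (66.1% of all Foxp3 peaks) and all 5 libraries at 4 (20.7%). Peaks 10 and 11 overlap and share their Elf1 and Ets1 positions, so the same place enters these counts and intervals as separate peaks. No peak had an ETS position in Treg only, as 3.50% of all Foxp3 peaks did.

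Peaks 4, 7, 8 and 11 had positions of all 5 libraries. At peak 4 (48658116 to 48658316) the Elf1 position had a fold enrichment of 21.6 (lower bound 9.98) in Treg and 19.4 (9.14) in CD4, 2 bp apart. Ets1 there had 13.6-fold (6.18) in Treg and 13.7-fold (7.06) in CD4, and the CD4 position was the 269th highest score of its whole list. Cbfb had 1.92-fold (0.561), with the lower bound under 1.

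At peak 7 (48677798 to 48677998) Elf1 reached 29.6-fold (lower bound 13.1) in Treg and 22.6-fold in CD4. The Treg position ranked 142nd of all Treg Elf1 scores, the best rank of any position in the window. Ets1 was 9.99-fold in Treg and 20.2-fold in CD4 at this peak. Cbfb had 2 positions, of 2.26 and 2.61-fold.

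At peak 8 (48683004 to 48683204) Ets1 led, with 19.6-fold (6.76) in Treg, rank 282, and 17.9-fold (7.99) in CD4, rank 365. Elf1 had 8.04-fold (2.71) in Treg and 10.9-fold (4.57) in CD4. The highest Cbfb score of the window lay here, 9 bp from the peak centre, at 4.04-fold (1.38) and rank 2751 of its list.

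Peak 6 (48675552 to 48675752) had the highest fold values and lower score ranks. Elf1 had positions of 36.7-fold (5.70) and 10.6-fold (2.37) in Treg, and 48.0-fold (8.30) in CD4, and Ets1 had 23.3-fold (6.46) in Treg and 23.9-fold (6.97) in CD4. The ranks ran from 4793 for CD4 Ets1 to 10459 for CD4 Elf1. Fold enrichment and score thus ordered this peak differently among the 13.

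The overlapping peaks 10 and 11 shared their Elf1 and Ets1 positions. Elf1 had 7.88-fold (2.98) in Treg and 17.9-fold (7.82) in CD4, and Ets1 had 14.6-fold (5.61) in Treg and 7.53-fold (3.75) in CD4. The factors therefore differed in opposite directions between the libraries. Cbfb, at 1.66-fold (0.341), was within reach of peak 11 only.

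Peak 5 (48668562 to 48668762) was mainly an Ets1 site. Ets1 had 15.6-fold (5.24) in Treg and 6.44-fold (3.03) in CD4, at ranks 997 and 834, while Elf1 had 3.58-fold (1.31) in Treg and 2.98-fold (1.24) in CD4. Peak 13 (48720882 to 48721082), apart from the run, had Ets1 positions of 10.6-fold (3.90) in Treg and 16.8-fold (6.83) in CD4 at the same base, 48720771. Elf1 there was 17.1-fold (5.67) in Treg and 6.07-fold (2.36) in CD4.

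Peaks 12, 3 and 1 each lacked a Treg Elf1 or Treg Ets1 position at this FDR. Cbfb had no position within 200 bp of peaks 1, 2, 5, 6, 9, 10 and 13. Peak 12 (48696002 to 48696202) had CD4 Elf1 at 9.02-fold and no Treg Elf1 position within 200 bp, but a Treg Elf1 position of 13.9-fold lay 266 bp away. Ets1 at peak 12 was 7.32-fold in Treg and 8.77-fold in CD4, and Cbfb 3.36-fold. Peak 3 (48650273 to 48650473) had Elf1 at 3.78-fold in Treg and 7.38-fold in CD4 with Cbfb at 2.61-fold, all within 25 bp of its centre. Its Treg Ets1 position, of 3.60-fold at the edge of the distance, had an FDR of 0.0141 and did not pass, while CD4 Ets1 had 13.4-fold. Peak 1 (48630547 to 48630747) had Elf1 at 6.64-fold (2.13) in Treg, and in CD4 at 0.920-fold (0.132), which is no enrichment. Ets1 at peak 1 was present in CD4 only, at 7.53-fold, and the nearest Treg Ets1 position was 568 bp away.

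Peaks 2 and 9 were the weakest in ETS binding. Peak 9 (48687125 to 48687325) had positions in CD4 only, of 2.02-fold (0.549) for Elf1 and 3.64-fold (1.2) for Ets1, a pattern seen at 3.33% of all Foxp3 peaks. Treg Elf1 lay 290 bp from it at 4.40-fold, and a Treg Ets1 position of 6.79-fold within reach had an FDR of 0.103. Peak 2 (48647155 to 48647355) had no position of any library at the FDR limit, as did 1.07% of all Foxp3 peaks. Among all deposited positions it had CD4 Elf1 at 2.01-fold (FDR 0.0156) and CD4 Ets1 at 0.890-fold (FDR 0.176), and no Treg position within 200 bp.

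**Figure D3:**
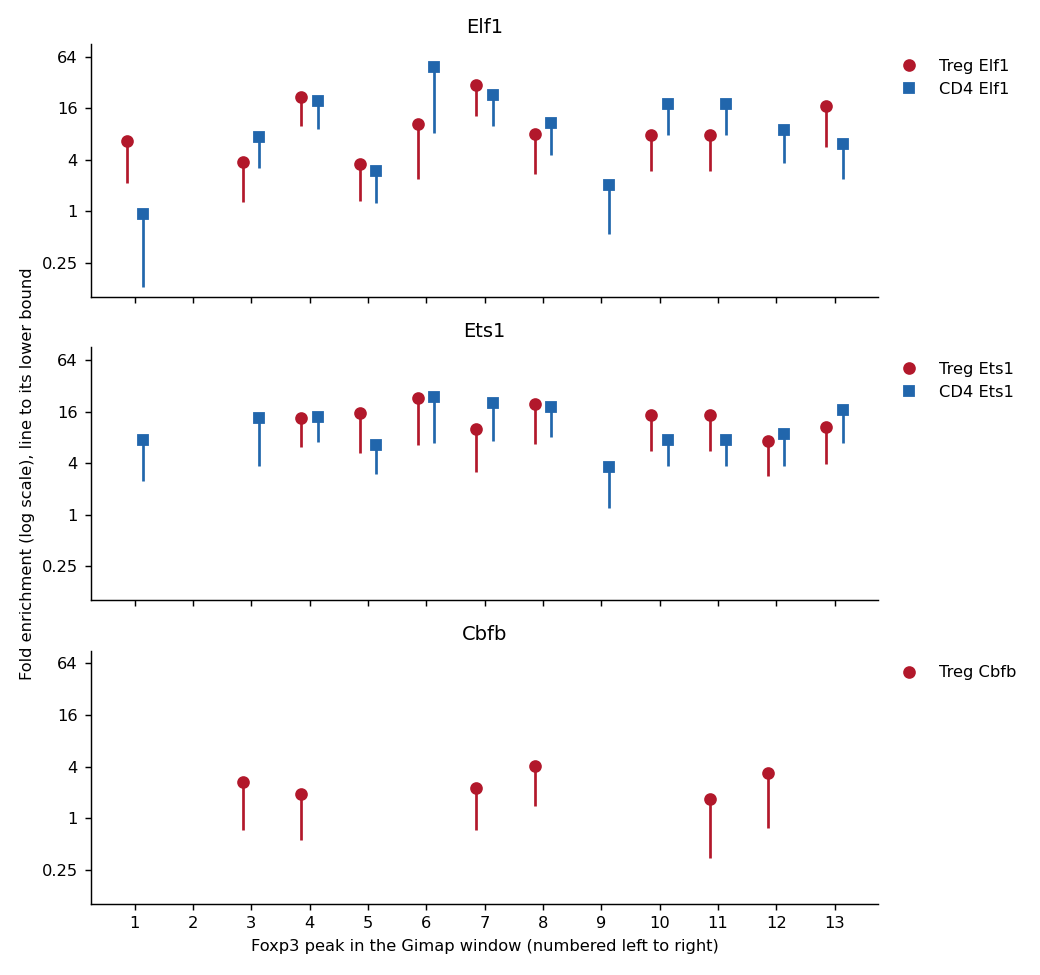
Fold enrichment (log axis) of the highest-scoring position within 200 bp of each of the 13 Foxp3 peaks, by factor, for Treg (red circles) and CD4 (blue squares), with a line down to the authors' lower bound. Empty places have no position at an FDR of at most 0.01; peak 2 has none in any panel, and Cbfb stays at or below 4.04-fold.

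Since only positions within 200 bp of a peak were counted, their distance from its centre is bounded by construction. The median distance of the highest-scoring position from the centre was 69.0 bp for Treg Elf1 and 41.5 bp for CD4 Elf1, 126 bp for Treg Ets1 and 44.0 bp for CD4 Ets1, and 41.5 bp for Treg Cbfb, over 10, 12, 9, 12 and 6 peaks. Treg Ets1 was within 50 bp at only 1 peak, and CD4 Ets1 at 6. The Elf1 and Ets1 positions shared by peaks 10 and 11 enter these medians more than once.

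Bases within 200 bp of a Foxp3 peak made up 5.24% of the window. Of the Elf1 positions in the window, 12 of 58 in Treg (20.7%, 11.2 to 33.4; 1.80% over the whole list) and 11 of 45 in CD4 (24.4%, 12.9 to 39.5; 4.87%) lay there. For Ets1 it was 9 of 70 in Treg (12.9%, 6.05 to 23.0; 4.14%) and 13 of 70 in CD4 (18.6%, 10.3 to 29.7; 6.49%), and for Cbfb 8 of 20 (40.0%, 19.1 to 63.9; 0.650%). Since the window was chosen for its Foxp3 peaks, the distance from the genome-wide shares follows in part from the choice.

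Most high-scoring Ets1 positions in the window lay away from Foxp3, as they did genome-wide. Among the 10000 highest scores, 27 of the 34 Treg Ets1 positions and 26 of the 35 CD4 Ets1 positions in the window were more than 200 bp from a Foxp3 peak. The other 7 and 9 made up 20.6 and 25.7%, near the 17.5 and 20.2% of these lists that lie at Foxp3 peaks genome-wide. For Elf1, 5 of 13 in Treg and 5 of 9 in CD4 were at a Foxp3 peak, against 15.6 and 16.4% genome-wide.

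At most 11 CD4 Ets1 positions lay within 5 kb of each other. This number was reached by 4 overlapping stretches between 48651813 and 48658193, the last of which ends at peak 4. A stretch at least as dense began at 0.188% of all CD4 Ets1 positions. Treg Ets1 reached 8 positions in 3 separate stretches (0.533%). The first ran from 48640719 to 48645090, the second from 48654269 to 48658401, up to peak 4 and over the dense CD4 Ets1 positions, and the third from 48693146 to 48697538. For Elf1, Treg had 8 positions between 48718293 and 48721112 (0.0602%), and CD4 reached 7 in 3 overlapping stretches between 48686518 and 48693195 (0.0653%).

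When positions of the 4 Elf1 and Ets1 lists at most 200 bp apart were joined, the window held 129 sites. Of these, 69 came from 1 library, 34 from 2, 11 from 3 and 15 from all 4. Sites of all 4 libraries made up 11.6% in the window and 2.61% genome-wide. Of the 15, 8 lay at a Foxp3 peak (26.4% of such sites genome-wide) and 7 did not. None of the 11 sites with 3 libraries lay at one (8.35% genome-wide).

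The 8 sites of all 4 libraries with Foxp3, joined as above, had higher median fold values than the 7 without. The ranges overlapped in every library. Treg Elf1 had a median of 15.5-fold (range 3.58 to 36.7) with Foxp3 and 5.24-fold (2.82 to 7.34) without, and CD4 Elf1 14.4-fold (2.98 to 48.0) and 4.97-fold (3.08 to 6.48). Treg Ets1 had 14.1-fold (7.32 to 23.3) with Foxp3 and 4.15-fold (2.00 to 13.4) without, and CD4 Ets1 15.2-fold (6.44 to 23.9) and 4.68-fold (3.13 to 21.4).

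Strong sites without Foxp3 were of more than 1 kind. The Elf1 position with the highest fold enrichment of the window lay at 48597228 in Treg, 62.1-fold (lower bound 22.9, rank 222), and its CD4 counterpart 9 bp away was 32.8-fold (11.9, rank 1575). CD4 Ets1 was 10.1-fold there, no Treg Ets1 position passed within 200 bp, and the nearest Foxp3 peak was over 30 kb away. At 48692052, between peaks 11 and 12, Elf1 was 21.0-fold in Treg and 15.6-fold in CD4, with Ets1 at 27.9-fold in CD4 and none in Treg. At 48657047, about 1 kb to the left of peak 4, Ets1 was 13.4-fold (rank 593) in Treg and 17.9-fold in CD4, while Elf1 was 5.24-fold in Treg and 3.08-fold in CD4. At 48634577 Ets1 ranked 818th in Treg at only 4.15-fold (1.68), with 3.27-fold in CD4, and at 48719527 it ranked 824th in Treg at 11.7-fold (4.39). Elf1 at 48631815 was 6.31-fold in Treg (rank 2081) and 5.49-fold in CD4. Ets1 at 48719178 was 23.3-fold in Treg, against 54.6-fold at 48719225 in CD4.

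A counterpart in the other cell type was found for about as many Elf1 as Ets1 positions. For Elf1, 26 of 58 Treg positions (44.8%, 31.7 to 58.5; 11.4% genome-wide) had a CD4 Elf1 position within 200 bp, and 25 of 45 CD4 positions (55.6%, 40.0 to 70.4; 32.5%) a Treg one. For Ets1, 30 of 70 Treg positions (42.9%, 31.1 to 55.3; 18.7%) and 31 of 70 CD4 positions (44.3%, 32.4 to 56.7; 27.7%) had a counterpart. Bases within 200 bp of a CD4 Ets1 position made up 19.3% of the window, and within 200 bp of a CD4 Elf1 position 12.7%. The trimmed lists gave 7 of 13 for Treg Elf1 (63.9% genome-wide), 7 of 9 for CD4 Elf1 (63.0%), 16 of 34 for Treg Ets1 and 17 of 35 for CD4 Ets1 (46.2% for both).

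Fold enrichment was compared between paired positions, each Treg position with its nearest CD4 position. Over 26 Elf1 pairs the Treg minus CD4 log2 fold enrichment had a median of 0.22 (interval -0.43 to 0.43), with 10 of 26 lower in Treg, against a median of -0.17 and 57.7% lower in Treg over 17926 pairs genome-wide. Over 30 Ets1 pairs the median was -0.21 (-0.67 to 0.14), with 18 of 30 lower in Treg, against -0.44 and 68.5% over 11551 pairs. Both intervals contained 0, and both contained the genome-wide median. They treat neighbouring pairs of the same libraries as independent, so they cannot decide whether the cell types differ. With score in place of fold, the medians were -0.95 for Elf1, which turns its direction, and -0.83 for Ets1, against -1.31 and -0.94 genome-wide. The 26 Elf1 pairs hold 25 different CD4 positions and the 30 Ets1 pairs 29. At the Foxp3 peaks the medians were -0.39 for 9 Elf1 pairs and -0.02 for 8 Ets1 pairs, and away from them 0.37 for 17 and -0.31 for 22.

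Single pairs ranged widely. Elf1 ran from -1.53, at 48636852 (5.94-fold in Treg, 17.1-fold in CD4), to 1.5 at peak 13. The CD4 position of that last pair, 48720944, was also the partner of a weaker Treg position at 48721112 (3.43-fold), with a difference of -0.83. Ets1 ran from -2.33, at 48654992 (2.57-fold in Treg, 12.9-fold in CD4), to 1.27 at peak 5. For both factors the lowest pair lay away from a Foxp3 peak and the highest at one, but these were single pairs. The medians were lower at Foxp3 peaks than away for Elf1 (-0.39 against 0.37) and higher for Ets1 (-0.02 against -0.31). Genome-wide, the medians at Foxp3 peaks were -0.23 for Elf1 and -0.52 for Ets1, against -0.17 and -0.44 over all pairs. The window medians at Foxp3 peaks rest on 9 Elf1 and 8 Ets1 pairs, and the contrast was not tested.

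**Figure D4:**
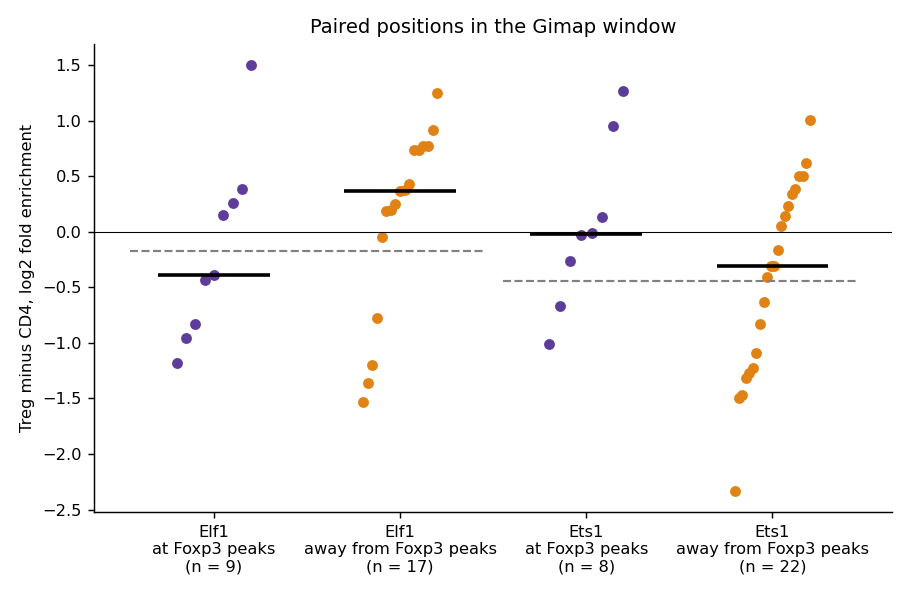
Treg minus CD4 log2 fold enrichment of paired positions in the window, for Elf1 and Ets1, at and away from Foxp3 peaks. Each dot is a pair, black bars are medians (-0.39, 0.37, -0.02 and -0.31 from left to right), and dashed lines are the genome-wide medians of -0.17 for Elf1 and -0.44 for Ets1; all 4 groups span 0.

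Elf1 positions of the window had an Ets1 position more often than genome-wide. Seen from Ets1, the share was above the genome-wide share only in the full Treg list. Of the Elf1 positions in the window, 26 of 58 in Treg (44.8%; 7.26% genome-wide) and 24 of 45 in CD4 (53.3%, 37.9 to 68.3; 27.5%) had an Ets1 position of the same cell type within 200 bp. Seen from Ets1, 25 of 70 in Treg (35.7%, 24.6 to 48.1; 17.8%) and 24 of 70 in CD4 (34.3%, 23.3 to 46.6; 35.3%) had an Elf1 position. In the trimmed lists, 6 of 13 Treg Elf1 positions had an Ets1 position (28.5% genome-wide), as did 7 of 9 in CD4 (50.2%). Of the trimmed Ets1 positions, 6 of 34 in Treg (17.6%, 6.76 to 34.5; 28.1% genome-wide) and 7 of 35 in CD4 (interval 8.44 to 36.9; 50.5%) had an Elf1 position. Bases within 200 bp of an Ets1 position made up 19.5% of the window for Treg and 19.3% for CD4. For Elf1 they made up 15.7% for Treg and 12.7% for CD4. Neighbouring positions are not independent, and the difference from the genome was not tested.

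Cbfb had the lowest median fold enrichment of the 5 libraries in the window. Of its 20 positions 9 had a Treg Elf1 position within 200 bp (5.14% genome-wide) and 6 a Treg Ets1 position (2.97%). Those at Foxp3 peaks had a median of 2.44-fold and those away 3.88-fold. By score the order was the other way, with a median rank of 33649 at Foxp3 peaks and of 52351 away. The highest fold values, 18.3-fold at 3 positions away from any Foxp3 peak, had a lower bound of 2.16 and score ranks from 55030 to 55032. The same value was given to 9806 of the 121632 positions of the list (8.06%). Away from Foxp3, the best-scoring Cbfb positions were at 48654823 (5.75-fold, rank 10017) and 48662997 (2.61-fold, rank 25888).

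The run with the next highest number of Foxp3 peaks, 7 with neighbours at most 10 kb apart, lay on chromosome 9. Runs were ordered by their number of peaks and not by peaks per kb. The window of equal width around this run, from 32240677 to 32380677, held 10 Foxp3 peaks. Treg Elf1 had 58 positions in the Gimap window, against 33 on chromosome 9, and CD4 Elf1 had 45, against 26. Treg Ets1 had 70, against 18 on chromosome 9, CD4 Ets1 had 70, against 21, and Treg Cbfb had 20, against 16. In the trimmed lists the Gimap window had 34 Treg Ets1 positions, against 9 on chromosome 9, and 35 CD4 Ets1 positions, against 10. For Elf1 it had 13 in Treg, against 7 on chromosome 9, and 9 in CD4, against 6. On chromosome 9, Treg Elf1 was present at 9, Treg Ets1 at 9, CD4 Elf1 at 9 and CD4 Ets1 at 10 of the 10 Foxp3 peaks, and Treg Cbfb at 2. A counterpart in the other cell type was found there for 13 of 33 Treg Elf1 and 14 of 26 CD4 Elf1 positions. For Ets1 it was 9 of 18 in Treg and 9 of 21 in CD4. An Ets1 position lay within 200 bp of 14 of 33 Treg and 15 of 26 CD4 Elf1 positions. These shares were near those of the Gimap window. Elf1 lay within 200 bp of 13 of 18 Treg and 14 of 21 CD4 Ets1 positions, against 25 of 70 and 24 of 70 in the Gimap window. The windows are 2 places of the genome in single libraries, and the difference between them was not tested.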

How the data were processed

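The submitters' processing notes name Bowtie 0.12.7 and build mm9. The authors deposited 1 Foxp3 list, from combined replicates per the labels, as start and end only. For the other 5 libraries the deposited files hold single-base positions. Their columns are, per the file headers, score, E-value, FDR (here read as a q-value) and the fold enrichment as an estimate with its lower bound. The caller, its thresholds, the control behind the fold ratio and the depth are not given in the sources used here, so list lengths depend on unknown depth. The 2 input libraries, both from Treg, and the CD4 Cbfb library were not analysed here. No input library from CD4 is among the samples.

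Positions at an FDR of at most 0.01 were kept and ranked by score within each library, ties being ordered by fold. Shares have exact Clopper-Pearson intervals, counts Poisson intervals and medians order-statistic intervals. A fold is the authors' value at a position and describes libraries, not cell types. All 13 Foxp3 peaks were described, with the 5 highest scores per library in the window and ranks up to 1000. The window, its genes and the motifs were chosen with earlier results of these data known. Functions were tested on simulated data. Python 3.11.15, numpy 2.4.6, pandas 2.3.3, scipy 1.17.1 and matplotlib 3.10.9 were used.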

Additional observations from a re-analysis of the deposited data

How the results depend on the processing

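Of 59 values under other settings 29 stayed close to the main value: counts of positions within 1.5 times of it, and shares, medians and numbers of Foxp3 peaks within its 95% interval. Counts of positions in the window depended on the list. With an FDR of at most 0.001 there were 45 Treg Ets1, 8 Treg Cbfb and 27 CD4 Elf1 positions, and with all deposited positions 114 Treg Ets1, 77 CD4 Elf1 and 137 CD4 Ets1. The 10000 highest scores left 13 Treg Elf1, 34 Treg Ets1, 2 Treg Cbfb, 9 CD4 Elf1 and 35 CD4 Ets1 positions. With these lists, Treg Elf1 was at 5, Treg Cbfb at 2 and CD4 Elf1 at 6 of the 13 Foxp3 peaks. All deposited positions put CD4 Elf1 and CD4 Ets1 at 13 peaks, and 500 bp put Treg Elf1 at 13.

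Within 500 bp, a counterpart in the other cell type was found for 74.1% of Treg Elf1, 80.0% of CD4 Elf1, 74.3% of Treg Ets1 and 68.6% of CD4 Ets1 positions, and within 100 bp for 22.9% of Treg Ets1 and 22.9% of CD4 Ets1 positions. Among the 10000 highest scores CD4 Elf1 had 77.8%. An Ets1 position lay within 500 bp of 74.1% of Treg and 73.3% of CD4 Elf1 positions, within 100 bp of 20.7% in Treg, and among the 10000 highest scores at 77.8% in CD4.

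By score in place of fold, the median Treg minus CD4 log2 value was -0.95 for Elf1, which reversed its sign, and -0.83 for Ets1. Over the whole lists the medians by score were -1.31 and -0.94; the cause was not tested. No paired analysis was possible because each group compared had 1 library and no test was run. The unknown depth and the single library per group limit every comparison of cell types.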
